A study of Mus musculus with 4 samples.

Results

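Mitochondrial ribosomal protein genes are the nuclear genes that encode the proteins of the mitochondrial ribosome, and they were taken as all genes whose mouse symbol is Mrps or Mrpl followed by a number and at most 1 letter. The rule found 77 of the 39179 genes listed in the count data, 29 named for the small subunit (Mrps) and 48 for the large subunit (Mrpl). RNA was sequenced from 4 samples of B16F1, an established mouse melanoma line, to compare parental cells with tumor repopulating cells (TRCs), the small fraction of cells that survive and form spheroids in soft 3D fibrin gels. The parental group (replicates 1 and 3) holds B16F1 cells kept on rigid 2D dishes, and the TRC group (replicates 1 and 3) holds B16F1 cells taken out of the gels on day 5. Both groups thus come from the same line and the labels name no engineered allele or drug, and the culture and the selection of surviving cells differ together between them. The labels do not say whether the samples numbered 1 and 3 were separate cultures, so the p-values measure only the spread between these samples, which may be technical.

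The mitochondrial ribosome translates the few proteins encoded in mitochondrial DNA, all of them core subunits of the respiratory chain and the ATP synthase. Its proteins are made in the cytosol and imported, and its RNAs come from mitochondrial DNA, so its assembly needs both genomes. Some of its proteins descend from bacterial ribosomal proteins, and others exist only in mitochondria. Nuclear genes of mitochondria often carry promoter sites for ETS factors such as GABP, for NRF1 and for YY1, and MYC binds the E-box.

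RefSeq promoter windows (250 bases before to 50 bases after the start, GRCm38.p6) were found for 68 of the 77 genes, in 74 windows. The letters CCGGAAG, the core of an ETS site, were present on either strand in 25 of the 74 windows (33.8%), against 8.86% of all 32851 windows of that length. The letters AAGATGGCG, the core of a YY1 site, were present in 8 windows (10.8%, against 1.4% of all windows), and GCGCA followed at once by its reverse complement, an NRF1 site, in 3 (4.05%, against 0.971%). The E-box CACGTG was present in 7 windows (9.46%), beside 7.15% of all windows. Several of these were near-identical windows of Mrpl2. By gene it was present in 5 of 68 members, beside 2187 of 27025 genes, so that share was not above the background. The 27025 genes were not limited to those tested here, and shares over tested genes alone were not computed for any of these letters. The ETS and YY1 letters can overlap on their AAG. None of the 74 windows held them joined in that way, and neither did any of all 32851 windows. The 3 genes related to bacterial protein S18, Mrps18a, Mrps18b and Mrps18c, all carried the ETS letters, and they are shown because only Mrps18b of the 3 passed the test between TRCs and parental cells (values are given with the small subunit). Of the 7 genes that passed it, Mrps22 is shown as the other with the ETS letters and Mrpl9 as the only one with the NRF1 letters. Each stretch reads 5′ to 3′ on the strand of the gene, with the ETS letters, or in Mrpl9 the NRF1 letters, in capitals (CTTCCGG is the same ETS core on the opposite strand). The stretch of Mrps18c also holds the E-box, left in lower case just before the capitals.
Mrps18a, chr17:46110886-46110985, plus strand: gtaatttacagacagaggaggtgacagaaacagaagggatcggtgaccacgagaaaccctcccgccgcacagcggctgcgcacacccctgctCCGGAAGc
Mrps18b, chr17:35916391-35916420, minus strand: tgtcccgagcatgcgcagtcgctCTTCCGG
Mrps18c, chr5:100798527-100798626, plus strand: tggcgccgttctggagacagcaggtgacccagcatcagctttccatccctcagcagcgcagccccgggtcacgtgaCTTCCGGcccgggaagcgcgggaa
Mrps22, chr9:98601680-98601779, minus strand: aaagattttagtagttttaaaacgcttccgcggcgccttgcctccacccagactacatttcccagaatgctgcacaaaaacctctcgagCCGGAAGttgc
Mrpl9, chr3:94443218-94443317, plus strand: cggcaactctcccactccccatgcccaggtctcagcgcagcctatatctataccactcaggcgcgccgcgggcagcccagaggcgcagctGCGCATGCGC
The match began 26 bases before the RefSeq start in Mrps18a, 156 before it in Mrps18c, 11 before it in Mrps22 and 28 before it in Mrpl9, and 43 bases after it in Mrps18b. A match is a description of letters and not a measured binding site.

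Between 35948295 and 43511554 reads were counted on genes per library, and the lowest count of a tested member was 417, at which counting error alone is 4.9%. Levels are given as CPM, counts scaled to the size of the library and by TMM factors, which set libraries of unequal composition on a common scale, and these factors lay between 0.957 and 1.04. Reads that aligned to more than 1 place were left out by the authors, and they made up 15.2% and 17.1% of the alignments of parental cells and 18.3% and 25.2% of those of TRCs (replicate 1 first). All 7 melanocyte markers examined passed the filter, and Dct, a pigment enzyme, was higher in TRCs (log2 fold change 1.08, FDR = 0.000307 in edgeR's exact test). The leukocyte genes Ptprc, Adgre1 and Itgam and the endothelial genes Cdh5 and Kdr had no counts in any library, which allows up to 0.0835 CPM in the shallowest (3 counts, counting error only). Other markers of these cells had low counts, the highest being Cd68, with 4.12 and 1.76 CPM in parental cells and 1.59 and 1.85 CPM in TRCs. Of 5 fibroblast markers, Col1a1 had 3.24 and 0.765 CPM in parental cells and 2.19 and 0.889 CPM in TRCs, Pdgfra had 1.08 to 1.83 CPM, and Col3a1, Dcn and Lum had at most 0.144 CPM.

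The mitochondrial ribosomal protein genes were mostly lower in TRCs than in parental cells. Of the 75 genes tested, 63 had a log2 fold change (TRC over parental) below 0, where 49.7% of all 11483 genes tested did, and their median was -0.37, beside 0.0034 for all genes. The values ran from -1.14 to 0.42, with quartiles of -0.49 and -0.076. Both TRC libraries lay below both parental libraries for 43 of the 75 genes (57.3%), against 30.4% of all genes, and above them for 1 gene (Mrpl41), against 30.2% of all genes. Single genes passed the test less often: 7 members (9.33%) were lower with an FDR under 0.05 in edgeR's exact test, where 7.05% of all genes were lower, a share near that background. No member was higher at that threshold (8.81% of all genes were), and none was higher at an unadjusted p under 0.05, where 19 were lower (13.2% of all genes were lower). The quasi-likelihood test and DESeq2 also found no member higher.

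**Figure D1:**
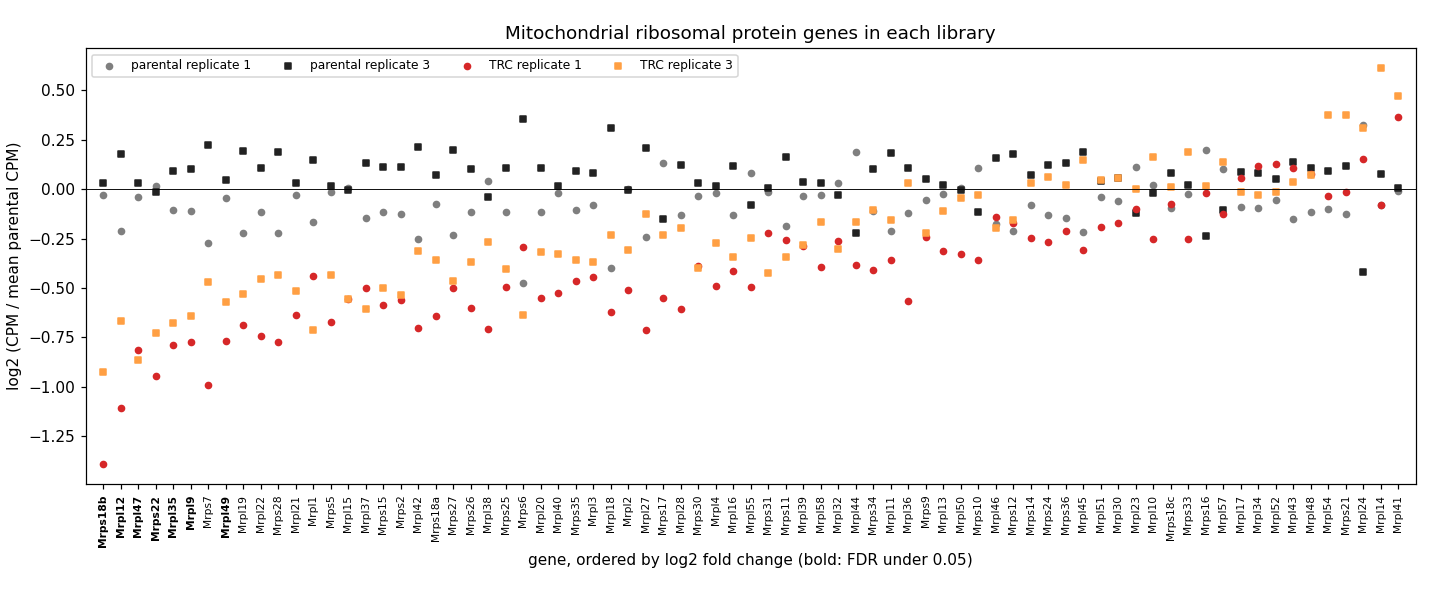
The log2 ratio of each library's CPM to the mean parental CPM (vertical axis) for the 75 tested genes, ordered by log2 fold change along the horizontal axis, with bold names for the 7 genes with an FDR under 0.05. Both TRC points lie below both parental points for 43 of the genes, most of them on the left, and the 12 genes at the right end have fold changes above 0.

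The number of called genes depended on single libraries. Without parental replicate 1, 11 members were lower in edgeR's exact test, without parental replicate 3 there were 2 (Mrps18b and Mrps22), without TRC replicate 3 there were 3 (those and Mrpl12), and without TRC replicate 1 there were 0, with 6 lower at an unadjusted p under 0.05. Of all genes, 7.44%, 3.16%, 2.36% and 2.34% were lower in these 4 fits, so that the count of all genes fell together with that of the members in 3 of them. The median kept its sign each time, between -0.42 and -0.25. Between single libraries, TRC replicate 1 was below parental replicate 1 for 62 of the 75 genes (median log2 difference -0.33) and below parental replicate 3 for 69 (median -0.50). TRC replicate 3 was below parental replicate 1 for 50 genes (median -0.18) and below parental replicate 3 for 62 (median -0.32).

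Summed over the members, the level was 3396 and 3785 CPM in parental cells and 2679 and 3068 CPM in TRCs (replicate 1 first), or 0.352%, 0.372%, 0.274% and 0.293% of the counts on genes. Both TRC sums lay below both parental sums, but a 2-sided exact permutation test of 2 against 2 libraries cannot give a p below 0.333. The small subunit summed to 1081 and 1219 CPM in parental cells and 850 and 958 CPM in TRCs, and the large subunit to 2315 and 2566 CPM and 1829 and 2109 CPM. The ratio of the large to the small sum was 2.14 and 2.11 in parental cells and 2.15 and 2.2 in TRCs, so that both subunits were lower together. These levels are shares of a library, and in bulk RNA fewer cells of a type and less RNA per cell cannot be told apart.

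In the small subunit, 26 of the 28 genes tested had a fold change below 0 (median -0.39), both TRC libraries lay below both parental libraries for 17 (30.4% of all genes), and Mrps18b and Mrps22 passed the test (7.14% of the subunit, beside 7.05% of all genes). Mrps18b (chromosome 17, 35910379 to 35916389 in GRCm38) encodes a protein related to bacterial S18 that takes a place of its own in the small subunit. It had 42.0 and 43.7 CPM in the parental libraries and 16.3 and 22.5 CPM in the TRC libraries. Its level was 42.8 ± 1.21 CPM (SD, n = 2) in parental cells and 19.4 ± 4.37 CPM in TRCs. The groups were well apart, and this was the lowest fold change of any member (2.21-fold lower, log2 fold change -1.14, SE 0.26, FDR = 0.000487 in edgeR's exact test). Of its 101-base words, 20.1% also occur in another annotated gene, Gm13552, and 638 of its 2089 exon bases lie opposite an antisense gene, Gm16279. How reads from these were divided was not tested.

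Mrps22 (chromosome 9, 98588730 to 98601660) encodes a small-subunit protein found only in mitochondrial ribosomes, and mutations in the human gene cause mitochondrial disease. It had 49.2 and 48.3 CPM in the parental libraries and 25.3 and 29.4 CPM in the TRC libraries. The groups did not overlap, and the level was 1.78-fold lower in TRCs (log2 fold change -0.83, SE 0.22, FDR = 0.00732, edgeR's exact test). Mrps7, whose bacterial relative organizes the head of the small subunit, had 39.2 and 55.3 CPM in parental cells and 23.8 and 34.1 CPM in TRCs. It missed the threshold (log2 fold change -0.71, FDR = 0.0629), and was named after its values were seen. Mrps12, the relative of a bacterial protein at the decoding center, had 20.1 and 26.4 CPM in parental cells and 20.7 and 20.9 CPM in TRCs, so that its groups overlapped (log2 fold change -0.16, FDR = 0.781).

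The 3 relatives of bacterial S18 were not alike in their values. Mrps18a, whose protein lies in the large subunit despite its name, had 45.4 and 50.4 CPM in parental cells and 30.7 and 37.4 CPM in TRCs. Its groups did not overlap, but it did not pass the test (log2 fold change -0.49, SE 0.23, FDR = 0.155, edgeR's exact test). Mrps18c, which takes the place of the bacterial protein in the small subunit, had 23.9 and 27.0 CPM in parental cells and 24.2 and 25.7 CPM in TRCs. Both its TRC values lay between its parental values (log2 fold change -0.028, SE 0.24, FDR = 0.964). The differences among the 3 fold changes were not tested.

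Some genes carry a name that does not match where the protein lies. Mrps30 also encodes a protein of the large subunit, and it had 58.1 and 60.8 CPM in parental cells and 45.4 and 45.1 CPM in TRCs (log2 fold change -0.39, FDR = 0.241, edgeR's exact test). Mrps36 encodes a part of the 2-oxoglutarate dehydrogenase complex, and its values of 17.8 and 21.6 CPM in parental cells and 17 and 20 CPM in TRCs overlapped (log2 fold change -0.088, FDR = 0.891). With Mrps18a and Mrps30 counted with the large subunit and Mrps36 left out, the medians were -0.39 for 25 small-subunit genes and -0.37 for 49 large-subunit genes. The lower value of the small subunit by name (-0.39 against -0.29) therefore depended on where these 3 genes were placed.

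In the large subunit, 37 of the 47 genes tested had a fold change below 0 (median -0.29), both TRC libraries lay below both parental libraries for 26 (30.4% of all genes), and 5 passed the test (10.6% of the subunit, beside 7.05% of all genes). Mrpl12 (chromosome 11, 120484613 to 120489065) encodes the relative of bacterial L7/L12, the stalk protein that contacts translation factors. It had 152 and 199 CPM in the parental libraries and 81.6 and 111 CPM in the TRC libraries. The groups did not overlap although replicate 1 was below replicate 3 in both, and the level was 1.82-fold lower in TRCs (log2 fold change -0.87, SE 0.25, FDR = 0.00823, edgeR's exact test).

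Mrpl47 (chromosome 3, 32725397 to 32737605) encodes the relative of bacterial L29, which lies by the exit of the peptide tunnel. It had 29.1 and 30.6 CPM in parental cells and 17 and 16.4 CPM in TRCs, with little spread inside either group, and was 1.79-fold lower (log2 fold change -0.84, SE 0.24, FDR = 0.0221, edgeR's exact test). Of its 4419 exon bases, 452 lie opposite Actl6a and 616 opposite Ndufb5. Mrpl35 (chromosome 6, 71812997 to 71826969), a relative of bacterial L35, had 46.8 and 53.7 CPM in parental cells and 29.1 and 31.5 CPM in TRCs. It was 1.66-fold lower, with no overlap between the groups (log2 fold change -0.73, SE 0.22, FDR = 0.0193).

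Mrpl9 (chromosome 3, 94443318 to 94451130), a relative of bacterial L9, had 68.0 and 78.7 CPM in parental cells and 42.8 and 46.9 CPM in TRCs. It was 1.63-fold lower, again without overlap (log2 fold change -0.71, SE 0.22, FDR = 0.0163, edgeR's exact test). Mrpl49 (chromosome 19, 6053622 to 6057785), found only in mitochondrial ribosomes, had 39.3 and 41.8 CPM in parental cells and 23.8 and 27.3 CPM in TRCs. It was 1.59-fold lower, close to the threshold (log2 fold change -0.67, SE 0.23, FDR = 0.0470), and was called in 3 of the 11 alternative settings. Mrps18b was called in 10 of these 11 settings, Mrpl12 and Mrps22 in 9, and Mrpl47, Mrpl35 and Mrpl9 in 7.

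**Figure D2:**
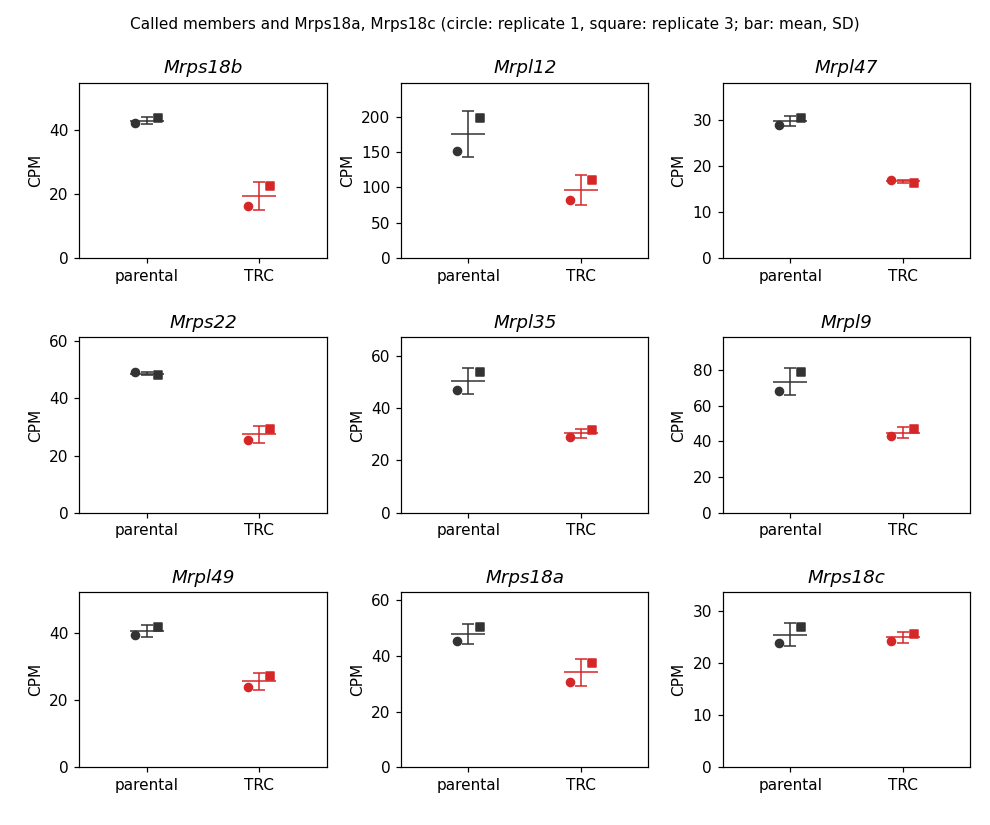
CPM (vertical axes, from 0) of the 7 genes with an FDR under 0.05 and of Mrps18a and Mrps18c in the parental and TRC groups, with circles for replicate 1, squares for replicate 3 and bars for the mean and SD (n = 2). The groups do not overlap in the 7 called genes or in Mrps18a, while the TRC values of Mrps18c (24.2 and 25.7 CPM) lie between its parental values.

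The genes were also grouped by whether the protein holds the place of a bacterial ribosomal protein or a place found only in mitochondria, and Mrps18a and Mrps18b, relatives of S18 by sequence, are in the second group. The 29 large-subunit genes with a bacterial counterpart had a median of -0.39, with 25 below 0. Of these 29, 4 were called lower (Mrpl12, Mrpl47, Mrpl35 and Mrpl9, 13.8%, beside 7.05% of all genes). The 20 large-subunit genes in mitochondria-specific places had a median of -0.22, with 14 below 0 and only Mrpl49 called (5%). In the small subunit the 16 genes with a bacterial counterpart had a median of -0.26 with 14 below 0. Of these 16, 0 were called (0%), with 4 lower at an unadjusted p under 0.05 in the exact test. The 9 others had a median of -0.45, with all 9 below 0 and 2 called (Mrps18b and Mrps22, 22.2%). In a grouping added after these values were seen, Mrps18a and Mrps18b were counted with the bacterial relatives. In the small subunit the medians were then -0.30 for 17 genes (1 called, 5.88%) and -0.43 for 8 (1 called, 12.5%). In the large they were -0.39 for 30 (4 called, 13.3%) and -0.18 for 19 (1 called, 5.26%). These medians and shares were not tested against each other, and each share rests on at most 4 called genes. Subunits here follow the place of the protein and not the symbol.

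The 12 genes with a fold change above 0 included 10 of the large subunit, and none passed the test. Mrpl41, a mitochondria-specific protein of the large subunit, had 20.3 and 20.5 CPM in parental cells and 26.3 and 28.3 CPM in TRCs. It was the only member whose TRC values both lay above its parental values, and it did not pass the test (log2 fold change 0.42, SE 0.23, FDR = 0.321, edgeR's exact test). Mrpl14, whose bacterial relative lies at the interface of the subunits, had 22.7 and 25.3 CPM in parental cells and 22.7 and 36.7 CPM in TRCs. TRC replicate 1 was level with parental replicate 1 and only TRC replicate 3 was higher, and the fold change (0.31, FDR = 0.537) was -0.085 at the lowest when 1 library was left out. Mrpl24 (0.23, FDR = 0.618), Mrps21 and Mrpl54 (each 0.19, FDR = 0.646 and 0.749) overlapped between the groups.

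Levels can be compared between genes only per length, and they were divided here by the median length of a gene's annotated transcripts. On the scale of mean CPM per kilobase over the 4 libraries, Mrps21 (146), Mrpl42 (130) and Mrpl20 (126) were the highest members. The order differed between the groups, since in parental cells Mrpl42 (152) was above Mrpl20 (144) and Mrps21 (136), and in TRCs Mrps21 (155) was followed by Mrpl30 (114), with Mrpl20 and Mrpl42 at 107 each. Mrpl42, a mitochondria-specific protein of the large subunit, had 83.9 and 116 CPM in parental cells and 61.4 and 80.6 CPM in TRCs, and Mrpl20 had 65.8 and 76.9 CPM and 48.7 and 57.2 CPM. Both were lower in both TRC libraries without passing the test (log2 fold changes -0.50 and -0.43, FDR = 0.177 and 0.198, edgeR's exact test). The lowest tested members were Mrpl1 (4), which forms the mobile L1 stalk, Mrpl47 (6.92) and Mrpl57 (7.55). Mrpl1 had 14.6 and 18.2 CPM in parental cells and 12.1 and 10 CPM in TRCs (log2 fold change -0.57, FDR = 0.264), and Mrpl57 had 23.2 and 20.1 CPM and 19.8 and 23.8 CPM (0.0098, FDR = 0.990).

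**Figure D3:**
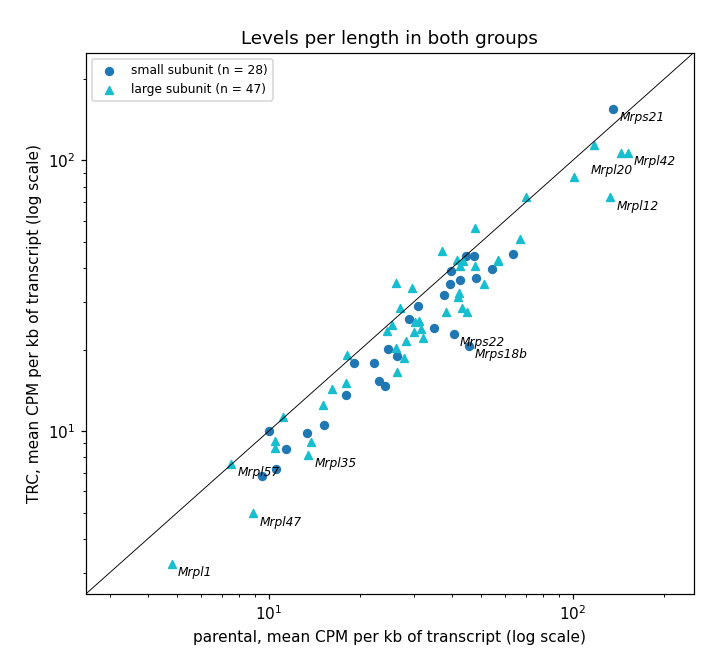
Mean CPM per kilobase of transcript in parental cells (horizontal axis) and TRCs (vertical axis), both on log scales, for 28 small-subunit and 47 large-subunit genes by symbol, with a line of equal levels. The genes below the line, 63 of 75 by fold change, run from Mrpl1 at the lower left to Mrpl42 at the upper right, while Mrps21 lies above it.

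Of the 77 members, 2 were too low to be tested. Mrps23 had 20 and 20 counts in parental cells and 16 and 22 counts in TRCs, which is 0.385 to 0.567 CPM, and the groups overlapped. Mrpl53 had 2 and 2 counts in parental cells and 0 and 0 in TRCs, all under the limit of 3 counts, and 695 of its 790 exon bases lie on the same strand as Gm42688, whose reads cannot be told from its own. Mrpl33 was not analysed here. Of all members, 30 share exon bases with another listed gene, 9 over more than 20% of their exon bases, and 6 have more than 10% of their 101-base words in another gene, so their counts are uncertain.

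Lists of other genes of mitochondrial translation also had medians below 0, and the genes called in them by the exact test were all lower in TRCs. Of the 80 genes of these 5 lists, 10 were called lower (12.5%, beside 7.05% of all genes). The quasi-likelihood test called 7 lower (4.24% of all genes were) and DESeq2 called 13 (8.24% of all genes were). Of 5 mitochondrial ribosomal proteins with other symbols, Ptcd3, a small-subunit protein, was lower (187 and 204 CPM in parental cells, 115 and 116 CPM in TRCs, log2 fold change -0.75, FDR = 0.00974, edgeR's exact test), and the list's median was -0.093. Of 28 genes for ribosome assembly and rRNA modification (median -0.30), 3 were lower (10.7%). Mrm3, a methyltransferase of the mitochondrial large-subunit rRNA, had 16.6 and 13.9 CPM in parental cells and 5.48 and 5.60 CPM in TRCs (log2 fold change -1.46, FDR = 0.00164), a larger change than that of any ribosomal protein gene. The GTPase Noa1 (-0.78, FDR = 0.0162) and Rcc1l (-0.83, FDR = 0.0414) were the others.

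Of 15 translation factors and activators (median -0.21), 2 were lower (13.3%). Lrpprc, which stabilizes mitochondrial mRNAs, had 137 and 152 CPM in parental cells and 60.1 and 83.4 CPM in TRCs (log2 fold change -1.01, FDR = 0.000914, edgeR's exact test), and the elongation factor Gfm1 had a log2 fold change of -0.73 (FDR = 0.0274). Of 17 mitochondrial aminoacyl-tRNA synthetases (median -0.22), Tars2, the threonyl enzyme, was the only one lower (5.88%, log2 fold change -0.83, FDR = 0.0171), and the quasi-likelihood test called none (5 were lower at an unadjusted p under 0.05). Of 15 genes for mitochondrial transcription and RNA processing (median -0.47), 3 were lower (20%), namely Trmt10c (-0.95, FDR = 0.00191) and Elac2 (-0.75, FDR = 0.0168), which process the ends of mitochondrial tRNAs, and the polynucleotide phosphorylase Pnpt1 (-0.67, FDR = 0.0211). No gene of these lists was higher in the exact test, where 1 assembly gene was higher at an unadjusted p under 0.05, and DESeq2 called 1 assembly gene higher. The number called lower over these lists depended on single libraries. It fell, as it did for all genes, when parental replicate 3 or either TRC library was left out. Without TRC replicate 1 the share called lower was below that of all genes, and without TRC replicate 3 it was near it. Without parental replicate 1, or without parental replicate 3, it was above that of all genes.

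The 12 tested mRNAs of mitochondrial DNA, the templates of the mitochondrial ribosome, had a median log2 fold change of -0.10. The values ran from -0.54 (mt-Nd3) to 0.63 (mt-Co1). Both TRC libraries lay above both parental libraries for 4 of the 12 and below them for 1, against 30.2% and 30.4% of all genes. None of the 12 was called in either direction by the exact test, the quasi-likelihood test or DESeq2. At an unadjusted p under 0.05 in the exact test 1 was lower and 1 higher. Mitochondrial mRNAs took 5.23% and 3.26% of the gene counts in parental cells and 4.96% and 4.33% in TRCs, so that the TRC values lay between the parental values. The nuclear subunits of oxidative phosphorylation, whose proteins assemble with the mitochondrial ones, had a median of 0.047 over 75 genes. In the exact test 2 of these were higher in TRCs (2.67%, beside 8.81% of all genes), both of complex I. They were Ndufv3 (log2 fold change 1.65, FDR = 4.25e-05), with 137 and 309 CPM in the TRC replicates, and Ndufa1 (0.65, FDR = 0.0350). The quasi-likelihood test called 1 higher and DESeq2 called 3. None was lower by these 3 tests (7.05% of all genes were in the exact test), with 1 lower at an unadjusted p under 0.05. The proteins of the cytosolic ribosome, 78 tested genes, had a median of -0.00078. None of them was called by these 3 tests (15.9% of all genes were in the exact test), with 1 lower at an unadjusted p under 0.05. These medians stand beside -0.37 for the mitochondrial ribosomal protein genes, and no test between the lists was made.

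**Figure D4:**
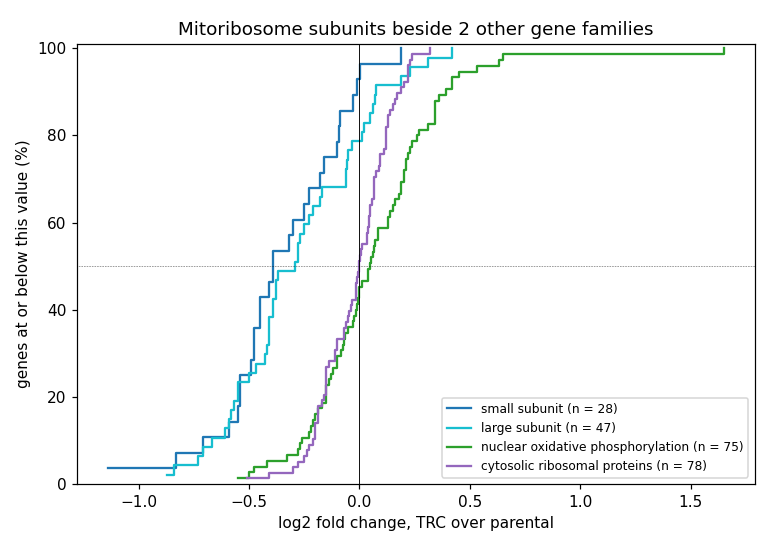
Cumulative share of genes (vertical axis, in percent) at or below each log2 fold change, TRC over parental (horizontal axis), for the small subunit (n = 28), the large subunit (n = 47), nuclear oxidative phosphorylation subunits (n = 75) and cytosolic ribosomal proteins (n = 78). The curves of both subunits cross the middle of the axis (50%) to the left of the other 2, with medians of -0.39 and -0.29 against 0.047 and -0.00078.

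Longer members had a lower median than shorter ones. The 38 members with transcripts up to the median length had a median log2 fold change of -0.27, with 2 called lower, and the 37 longer ones had -0.39, with 5 called lower (5.26% and 13.5%). All coding genes tested had medians of 0.059 and -0.0016 over the same lengths, with 3.98% and 7.59% called lower. Across the members the Spearman correlation of fold change with transcript length was -0.28 (n = 75 genes, which share the same 4 libraries), and across all 10884 coding genes it was -0.034. The correlation across members was 0.055 with GC content and -0.13 with mean level. By promoter letters, the 23 tested members with the ETS core had a median of -0.16 with 2 called, and the 43 without it had -0.37 with 5 called. The 8 with the YY1 core had a median of -0.48 with 1 called, and the 58 without it had -0.29 with 6 called. For the NRF1 letters the medians were -0.29 for 3 members (1 called) and -0.32 for 63 without them (6 called). For the E-box they were -0.41 for 5 (0 called) and -0.30 for 61 without it (7 called). Of all genes tested, 7.05% were called lower, and these groups were not tested against each other.

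The comparison of replicates asks how much the members vary inside a group, and since a group has 1 library on each side no test was made. Replicate 1 was below replicate 3 for 60 of the 75 members in parental cells, against 50.4% of all genes, and for 60 of the 75 in TRCs, against 50.1% of all genes. It was above replicate 3 for the other 15 members in each group, against 49.6% and 49.9% of all genes. The median log2 difference of CPM plus 0.5, replicate 1 minus replicate 3, was -0.17 in parental cells and -0.20 in TRCs, beside -0.0042 and -0.00068 for all genes. Coding genes with transcripts up to the members' median length had medians of -0.053 and -0.15, and the 38 members of that length had -0.18 and -0.23. The small subunit was lower in replicate 1 for 24 of its 28 genes in both groups (medians -0.20 and -0.22), and the large subunit for 36 of its 47 genes in both (medians -0.15 and -0.20). A shift of the members thus also lay between libraries of the same group, and it was about as large in both subunits. These medians were smaller in size than the -0.37 between the groups and close to the -0.18 between TRC replicate 3 and parental replicate 1. Over single genes the difference ran from -0.82 to 0.74 in parental cells and from -0.68 to 0.34 in TRCs.

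The members that differed most between parental replicates were Mrps6, Mrpl24 and Mrpl18. Mrps6 had 33.0 CPM in parental replicate 1 and 58.7 in replicate 3 (log2 difference -0.82), and 37.5 and 29.5 CPM in the TRC replicates. Mrpl24 went the other way in parental cells, with 73.7 and 44.0 CPM (0.74), and Mrpl18 had 52.4 and 85.6 CPM (-0.70). None of these genes was called between the groups (log2 fold changes -0.45, 0.23 and -0.41, FDR = 0.321, 0.618 and 0.323, edgeR's exact test). In TRCs the largest differences were those of Mrpl14 (-0.68), Mrpl36 (-0.58) and Mrpl27 (-0.57). Mrpl36 had 23.2 and 35.0 CPM in the TRC replicates, and Mrpl27 had 13 and 19.5 CPM. Mrps6 shares 159 of its 1533 exon bases with Slc5a3 on the same strand, and 594 of the 2255 exon bases of Mrpl24 lie opposite Rrnad1. Of the 101-base words of Mrpl27, 19.8% also occur in Gm6304. Mrpl18, Mrpl14 and Mrpl36 share fewer exon bases with other genes. How reads from these were divided was not tested.

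**Figure D5:**
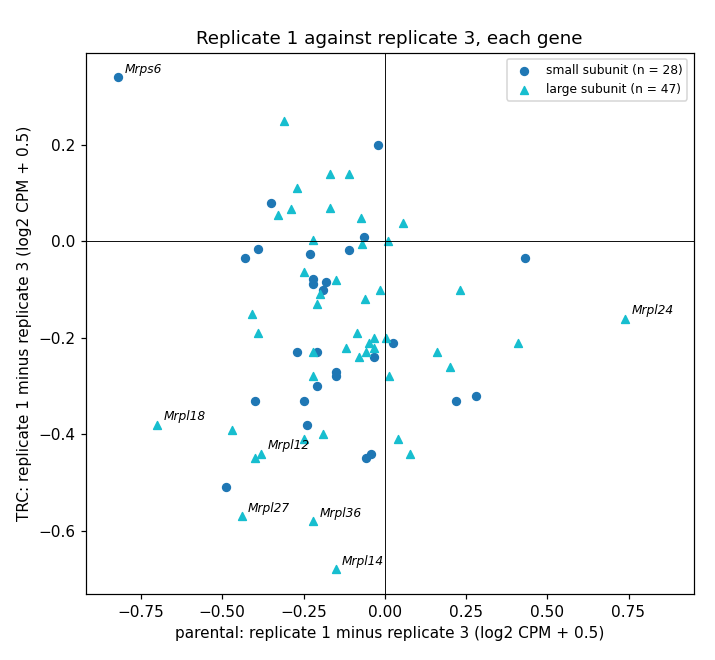
Log2 difference of CPM plus 0.5 between replicate 1 and replicate 3 in parental cells (horizontal axis) and TRCs (vertical axis) for 28 small-subunit and 47 large-subunit genes by symbol. Most points lie in the lower left, where replicate 1 is below replicate 3 in both groups, and Mrps6 (-0.82 in parental cells) and Mrpl24 (0.74) stand at the sides.

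Some other gene families also had lower levels in replicate 1, and others did not. Replicate 1 was below replicate 3 for 77 of the 78 cytosolic ribosomal protein genes in parental cells and 72 in TRCs (medians -0.17 and -0.30), and for 64 and 70 of the 75 nuclear oxidative phosphorylation genes (medians -0.15 and -0.27). Their medians between TRCs and parental cells were 0.047 for the oxidative phosphorylation genes and -0.00078 for the cytosolic ribosomal protein genes. The 80 genes of the 5 other mitochondrial translation lists showed no such replicate shift. Replicate 1 was above replicate 3 for 45 of them in parental cells and 38 in TRCs (medians 0.042 and -0.017). The 12 mitochondrial mRNAs were all above in parental replicate 1 (median 0.66), with a median of 0.069 in TRCs. In TRCs the signed difference, replicate 1 minus replicate 3, rose with transcript length across members (Spearman correlation 0.29, n = 75). It also rose across all coding genes (0.23), and in parental cells the correlation across members was 0.075.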

How the data were processed

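RNA of 2 parental and 2 TRC samples was sequenced by the authors from stranded, poly(A)-selected libraries as single-end reads, which they trimmed with Trimmomatic 0.35, aligned to GRCm38 with TopHat2 2.1.0 (Bowtie2 2.2.6, SAMtools 1.3) and assigned to Ensembl genes with htseq-count. The authors deposited these counts as they were, without normalization. The strand setting and mode of counting are not given in the sources used here. A read aligned to several places was not counted, so genes with near-identical copies can be undercounted.

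Totals that name no gene were removed, and genes under 1 CPM in 3 or more of the 4 libraries were dropped, which left 11483 genes. Groups came from the sample labels. edgeR 4.0.16 under R 4.3.3 was run on all of them (TMM factors, common and tagwise dispersions, exact test, prior count 0.125), with Benjamini-Hochberg FDR under 0.05 as the threshold and standard errors from DESeq2 1.42.0. Fold changes are log2, TRC over parental. Symbols, positions and lengths came from GENCODE M21. Alternatives were other filters and scalings, edgeR's quasi-likelihood test with and without the replicate as a block, DESeq2, each library left out in turn, and the subunit by structure. A grouping of Mrps18a and Mrps18b with the bacterial relatives was added after the data were seen. With 1 library left in a group, its spread is taken from the other group. Precision at this depth is given by counting error, and intervals cover counting error only.

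The genes and lists were chosen with earlier results of these data known. Named were all members with an FDR under 0.05, the 5 highest and 5 lowest fold changes, Mrps18a, Mrps18b, Mrps18c, Mrpl12, Mrps12, Mrps30 and Mrps36, the 3 highest and 3 lowest levels per length, the 3 largest replicate differences a group, members not tested and, of each other list, up to 5 called genes. Mrps7, Mrpl30, the marker genes and genes that overlap a member are named outside that rule.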

Additional observations from a re-analysis of the deposited data

How the results depend on the processing

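No member was called higher in any setting, and the median log2 fold change of the members was below 0 in all of them. The number called lower was 6 when 1 CPM was required in 3 libraries (6.88% of all genes were lower) and 6 with no filter (3.89%). It was 7 with DESeq2 size factors (7.01%), 9 with library size only (7.43%), 6 in the quasi-likelihood test (4.24%) and 8 in DESeq2 (8.24%). Percentages in brackets are the share of all genes called lower in the same setting. With the replicate number as a block in the quasi-likelihood test the number was 2 (Mrpl12 and Mrps18b), 1 in each subunit. In that fit 4 of the 80 genes of the other mitochondrial translation lists were lower, beside 2.68% of all genes. Deviations of samples with the same number correlated at 0.0267 across genes, and the main test did not pair the samples by number. A correlation over all genes cannot show whether part of them share a shift by number. Among the members, replicate 1 was below replicate 3 for 60 of 75 in parental cells and for 60 in TRCs. Whether the numbers pair the samples was not settled. When single libraries were left out, the number called lower ranged from 0 to 11, in the small subunit from 0 to 4 and in the large subunit from 0 to 7. The large-subunit median (-0.29) was -0.36 with no filter, -0.37 with subunits by structure, and -0.42 to -0.21 with a library left out. The cause of these differences was not tested. Over all genes, 1822 were called in either direction in the exact test, 1054 in the quasi-likelihood test and 785 with the block. Mrpl42, Mrps6 and Mrpl18 passed the threshold only without parental replicate 1. Without that library, 1 cytosolic ribosomal protein gene and 1 nuclear oxidative phosphorylation gene were lower and 2 mitochondrial mRNAs higher. Library size scaling moved the median of all genes to -0.024. With 2 libraries a group, fold changes of the size seen in most members did not pass the threshold.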
